A study of Mus musculus with 8 samples.

Results

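The Bcl2 family decides whether the outer membrane of mitochondria stays intact or is opened to release cytochrome c and start apoptosis. The 9 genes described here were taken by name from a table of 19669 genes. Bcl2, Bcl2l1 (Bcl-xL), Mcl1 and the copies Bcl2a1a, Bcl2a1b and Bcl2a1d (A1) encode proteins that protect the cell, and are called survival genes below. Bax and Bak1 encode the effectors that form pores, and Bcl2l11 (Bim) encodes a BH3-only protein that binds the survival proteins and activates the effectors. As background, Bcl-xL is known to be needed by maturing erythroblasts, Mcl1 by stem cells, neutrophils and lymphocytes, Bcl2 by mature lymphocytes, and A1 is an NF-kB target of activated leukocytes. Mcl1 protein is short-lived and its level is also set after transcription, so that RNA is only part of its control.

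The cells came from erythroblastic islands, groups in which red cell precursors mature around a central macrophage, which were prepared on albumin gradients and dissociated with EDTA. All mice were male and of the lupus-prone Sle1.Yaa strain. The anemic mice carried a human TLR8 transgene (2 marrow and 2 spleen libraries), and the non-anemic controls did not (3 marrow libraries and 1 spleen library). The labels give neither the age nor the promoter of the transgene. The columns of the table carry barcodes alone, so that no cell could be put in a group, and the effect of the transgene or the tissue on these genes was not measured. The table fell into 8 sorted runs of barcodes, as many as the libraries, with 447 to 6787 cells and 6195876 to 48442321 UMIs (unique molecular identifiers, 1 per captured RNA) each. These runs are treated as unnamed libraries. A total of 1031 cells shared a barcode with a cell of another run. Values are given with the lowest, median and highest run, and no test between groups or classes was made.

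Of 24925 cells clustered, 1296 in 3 clusters stayed unnamed, and the rest were divided into 20 classes and stages. Class names carry the ending -like since RNA markers alone gave them, and the family genes took no part in the clustering. Red cell precursors were ordered by the share of their UMIs that was globin, the main product of these cells. The ranges were under 2%, 2 to 20%, 20 to 60%, 60 to 80%, and 80% or more, and they are ranges of a score, not cell types. Between 150 and 469 cells lay within 1 point of a boundary. Levels are UMI counts scaled to a total of 1000000 (CPM), and for erythroid stages the globin UMIs were left out of the total. The libraries count transcript ends, so genes were compared without dividing by length. Exact 95% intervals cover counting error only. The preparation was not pure. Of the clustered cells 10175 were erythroid-like, and these made up 15.2 to 78.6% of single runs.

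On the GRCm38 assembly, GENCODE places Bcl2 on chromosome 1 (chr1:106538178-106714274, minus strand), Mcl1 on chromosome 3 (chr3:95658788-95663176, plus) and Bcl2l1 on chromosome 2 (chr2:152780668-152831728, minus). Bcl2l11 lies on the same chromosome as Bcl2l1 (chr2:128126038-128162547, plus), Bax at chr7:45461697-45466898 (minus) and Bak1 at chr17:27019810-27029009 (minus). The 3 A1 copies lie close together at chr9:88723285-88731914 (Bcl2a1d, minus), chr9:88956900-88962419 (Bcl2a1a, plus) and chr9:89199209-89207827 (Bcl2a1b, plus). All 9 are annotated as protein-coding.

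The sequences just upstream of the A1 genes are shown because the copies are nearly identical and their reads are hard to tell apart. They are from RefSeq on GRCm38.p6, 5′ to 3′ on the strand of the gene, and each ends at the base before the GENCODE gene. Capitals mark GAGGAAGT, an ETS-type motif of the kind bound by PU.1, searched on both strands.
Bcl2a1a, chr9:88956670-88956899: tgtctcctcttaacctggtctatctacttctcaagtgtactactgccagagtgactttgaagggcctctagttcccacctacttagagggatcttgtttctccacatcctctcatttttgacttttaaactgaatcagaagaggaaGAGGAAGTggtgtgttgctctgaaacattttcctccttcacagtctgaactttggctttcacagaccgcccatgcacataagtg
Bcl2a1b, chr9:89199023-89199208: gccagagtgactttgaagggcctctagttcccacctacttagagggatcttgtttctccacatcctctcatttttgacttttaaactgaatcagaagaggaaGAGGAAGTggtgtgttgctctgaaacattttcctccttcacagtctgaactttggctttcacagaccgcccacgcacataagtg
Bcl2a1d, chr9:88731915-88732100: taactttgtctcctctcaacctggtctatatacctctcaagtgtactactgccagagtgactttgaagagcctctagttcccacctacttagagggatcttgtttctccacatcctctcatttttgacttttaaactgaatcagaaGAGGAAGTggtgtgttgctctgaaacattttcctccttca
Each stretch holds the motif 1 time, and 2.44% of all 32851 RefSeq windows of 250 upstream bases hold it. Among the other members it was also in the window of Bak1. Over aligned bases, gaps left out, the stretches of Bcl2a1a and Bcl2a1b were 99.5% identical, those of Bcl2a1a and Bcl2a1d 97.8%, and those of Bcl2a1b and Bcl2a1d 99.3%. A motif match is a description of the letters and not of a bound site.

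The GATA-type motif AGATAA, of the kind bound by the erythroid factor GATA1, was searched the same way because Bcl2l1 changed more than any other member along the erythroid course. It occurred in 1 of the 3 RefSeq windows of Bcl2l1, 41 bases before an internal start, and in none of the windows of the other 8 members, against 9.99% of all windows. The 30 bases around the match are printed, with the motif in capitals. They lie within exons of 3 of the 9 GENCODE transcripts of Bcl2l1.
Bcl2l1, chr2:152828513-152828542, minus strand: attgtgacccaaAGATAAagagagcagagg

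Mcl1 was the most abundant survival gene in 17 of the 20 classes and stages, Bcl2l1 in 2, the A1 copies together in 1 and Bcl2 in none. Bcl2l1 led in the erythroid cells of 60 to 80% globin and of 80% or more, and A1 in the macrophage-like cells. Within that class Mcl1 led the cluster with the most macrophage markers, as given below. Of the 32 clusters, Mcl1 led 25, Bcl2l1 led 4 and A1 led 3. The leading gene was the same in every run with at least 20 cells for 17 of the 20 classes. The exceptions were the T cell-like cells, where Mcl1 led in 5 of 8 runs, the megakaryocyte-like cells with 4 of 6, and the macrophage-like cells with A1 first in 7 of 8.

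**Figure D1:**
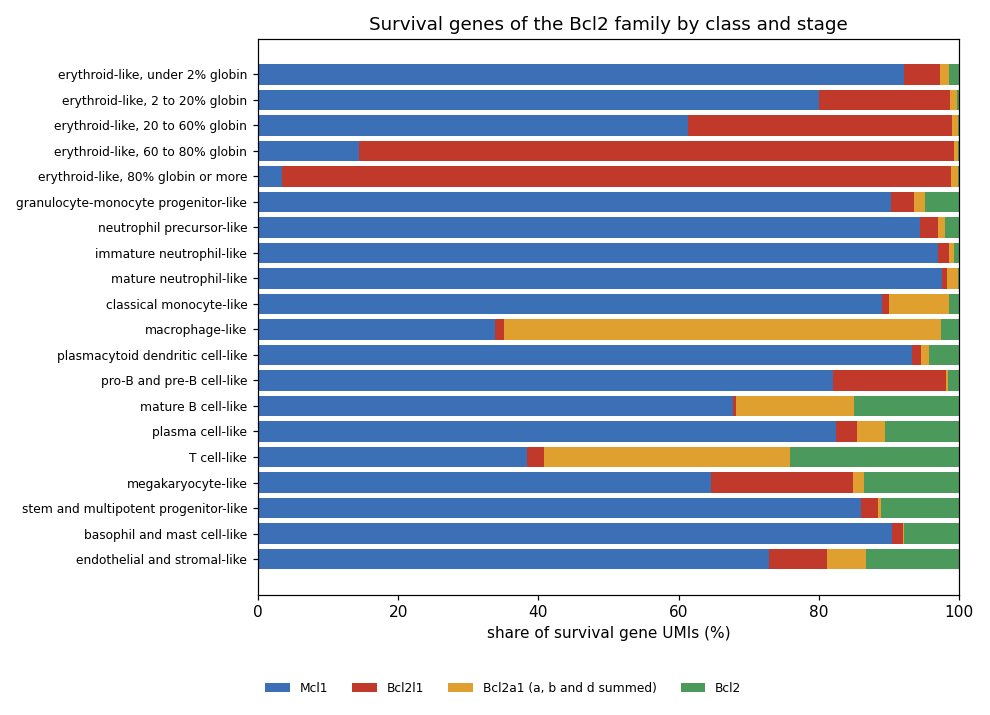
Share of each survival gene among the UMIs of Bcl2, Bcl2l1, Mcl1 and the summed A1 copies (x axis, percent) in the 20 classes and stages (y axis), pooled over runs. Mcl1 fills most bars, Bcl2l1 takes 84.9 and 95.5% in the late erythroid stages, and A1 takes 62.3% in macrophage-like cells.

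Mcl1 was highest in mature neutrophil-like cells at 1871 CPM (95% interval 1833 to 1909), with 1145 in the lowest run, 1862 in the median and 2585 in the highest. Classical monocyte-like cells followed at 974 CPM (733 to 1360 over runs), and immature neutrophil-like cells at 738 CPM (521 to 946). The runs of neighbours in this order overlapped at 17 of its 19 steps. All 5 erythroid stages stood at the bottom, from 73.7 to 190 CPM. The next class above them, the granulocyte-monocyte progenitor-like cells at 277 CPM (237 to 329), overlapped over runs with the stage of 60 to 80% globin (151 to 255) and with no other erythroid stage.

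Along the erythroid course the leading survival gene changed from Mcl1 to Bcl2l1. Mcl1 held 92.1% of survival gene UMIs under 2% globin, 80.03% at 2 to 20%, 61.3% at 20 to 60%, 14.4% at 60 to 80% and 3.40% at 80% or more. Bcl2l1 held 5.11, 18.6, 37.8, 84.9 and 95.5% in the same stages. At 60 to 80% globin the Bcl2l1 share had an interval of 84.1 to 85.7% and ran from 64.2% in the lowest of 7 runs through 82.4% to 91.6%. Mcl1 led in every run compared in the 3 stages below 60% globin, and Bcl2l1 in every run in the later ones. Cells under 2% globin had a median of 3467.5 UMIs against 8084 at 60 to 80%, and 1 run supplied 35.4% of the cells and 65.7% of the non-globin UMIs of the first stage. Without that run the stage had 89.9% Mcl1, 120 CPM of Mcl1, 188 CPM of Bax and 76.8 CPM of Bak1. A share within the family does not depend on how much globin fills the total.

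Bcl2l1 itself stood at 6.99 CPM under 2% globin (0 in the lowest run, 6.88 in the median and 9.14 in the highest). It reached 29.4 CPM at 2 to 20% (21.7, 28.0 and 40.6), and 117 CPM at 20 to 60% (64.3, 105 and 143). At 60 to 80% it was 1046 CPM (458, 914 and 1864) and at 80% or more 2072 CPM (1251, 2094 and 2967). The runs of the first 4 stages did not overlap, and those of the last pair did. A shallow erythroid-like cluster of 184 cells, led by Tmcc2, Slfn14 and Xpo7, had a median globin share of 17.6%. Bcl2l1 held 91.0% of its survival UMIs, against 14.7% in the 1238 cells of a cluster with a median globin share of 12.3%. The part of the 184 cells in the Bcl2l1 levels at low globin shares was not tested. The log2 difference between 60 to 80% and under 2% globin, with 10 CPM added to both, was 5.96 (counting interval 5.61 to 6.32) and lay between 5.27 and 6.61 in 7 runs. On totals that include globin it was 4.29.

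**Figure D2:**
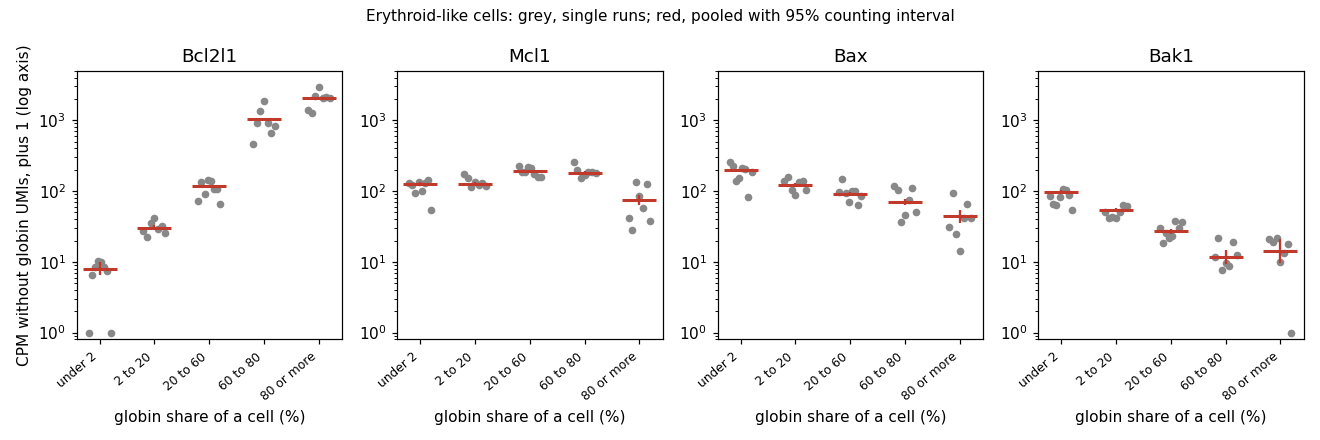
Level of Bcl2l1, Mcl1, Bax and Bak1 in CPM without globin UMIs, plus 1 on a log axis, in the 5 erythroid ranges of globin share (x axis, percent). Grey points are runs with at least 20 cells and red bars the pooled level with its counting interval. Bcl2l1 goes from 6.99 to 2072 CPM while Bax goes from 198 to 43.0 CPM.

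Per cell, the change was one of copies as well as of share. In ranges of 5 globin points, Bcl2l1 had 0.0887 UMIs per cell under 5% globin, 1.22 at 55 to 60%, and its highest value of 3.88 at 70 to 75%. It then came down to 1.38 at 90 to 95%, where only 796 UMIs per cell were not globin. Mcl1 went from 1.08 UMIs per cell under 5% to 1.66 at 15 to 20%, and down to 0.0540 at 90 to 95%. Bcl2l1 first outnumbered Mcl1 in the range from 55 to 60%, with 54.5% of their joint UMIs (interval 51.6 to 57.5). Between 65 and 70% it had 81.8%. Of the 8 runs, 6 had at least 20 cells in 10 or more ranges, and Bcl2l1 first led there in ranges that began at 50 to 60% globin. The other 2 runs had such numbers in 2 ranges and in 1.

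**Figure D3:**
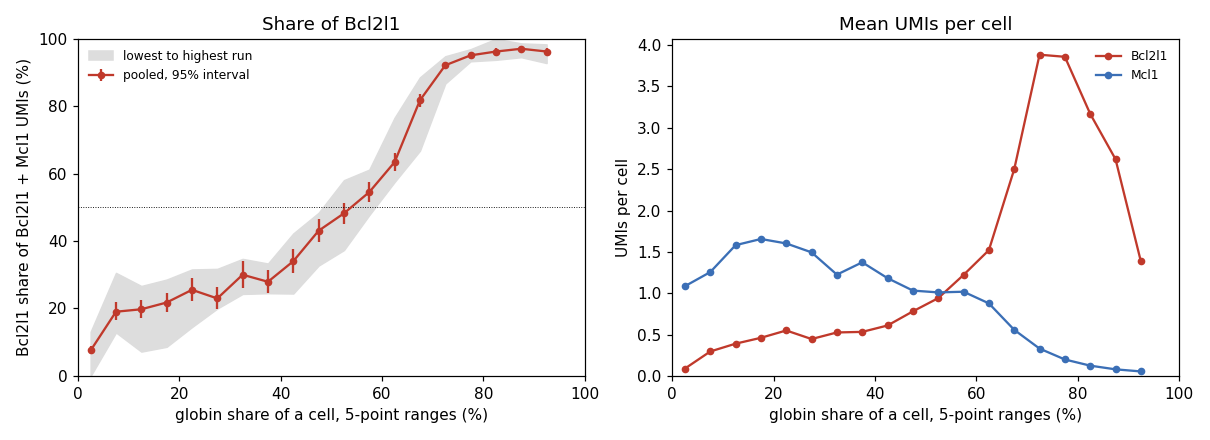
Left, Bcl2l1 share of the joint UMIs of Bcl2l1 and Mcl1 (percent) against the globin share of a cell in 5-point ranges, pooled with counting intervals and, in grey, the lowest to highest run. Right, mean UMIs per cell of both genes; the curves cross between 50 and 60% globin, and Bcl2l1 is highest at 3.88 UMIs per cell.

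The effectors went the other way. Bax was 198 CPM under 2% globin (81.9 to 260 over 8 runs), the highest pooled level of any class, and 68.6 CPM at 60 to 80% (35.9 to 117 over 7 runs) and 43.0 CPM at 80% or more (13.3 to 91.6). Bak1 was also highest under 2% globin, at 94.7 CPM (52.7 to 105), and lowest at 60 to 80%, at 10.6 CPM (6.73 to 20.5). With the largest run of each class left out, Bax was 188 CPM under 2% globin and 233 in macrophage-like cells. Bak1 was then 76.8 CPM under 2% globin and 88.6 in classical monocyte-like cells, so both top ranks depended on the largest runs. Survival gene UMIs per Bax and Bak1 UMI were 0.468 under 2% globin, so effector RNA outnumbered survival RNA there and in each of the 8 runs (0.333 to 0.901). The ratio was 0.899 at 2 to 20%, 2.64 at 20 to 60%, 15.6 at 60 to 80% and 38.4 at 80% or more. In the last 2 stages it ranged over runs from 5.58 to 38.4 and from 11.9 to 139. Bcl2l11 was 14.7 CPM under 2% globin, 21.1 at 2 to 20%, 4.90 at 60 to 80% and 2.15 at 80% or more.

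Of the 9 members, 4 reached 20 CPM in one of the compared stages, under 2% and 60 to 80% globin. A difference was called when the pooled levels were separated by 2-fold or more and each run compared had the same sign. By that rule 1 was higher (Bcl2l1), 2 lower (Bax and Bak1) and 1 neither (Mcl1, 0.47 in log2). Of all 5808 genes tested, 16.6% were higher and 41.7% lower, so the lower calls of Bax and Bak1 are of a kind that many genes share. The median gene was at -0.82, and relative to it Bax was at -0.58 and Bak1 at -1.52. With globin in the totals, the median gene was at -1.65 and Mcl1 at -1.07, so the direction of Mcl1 depended on the scale, while relative to the median gene it was higher on both (1.29 and 0.58). For 80% globin or more against under 2%, the same member was higher and the same 2 lower, beside 9.19% higher and 61.1% lower among all genes. There Mcl1 was at -0.70 without globin UMIs, and relative to the median gene at 0.66 without and -0.65 with globin in the totals.

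The A1 copies, summed, were 1.88 CPM under 2% globin and 20.4 CPM at 80% or more (38 UMIs; 4.28 to 36.5 over runs), which also met the rule, with a log2 difference of 1.36 that was 0.03 with globin in the totals. Leaving out any 1 of 3 runs put it under 20 CPM (18.3 to 19.5) and ended the call. RNA of other cells moved with it. S100a8, a neutrophil gene, went from 0.202 to 2.11% of its level in mature neutrophil-like cells, and Cd74 from 1.06 to 4.82% of its level in macrophage-like cells, while A1 went from 0.179 to 1.95% of its macrophage-like level. At 80% or more, Mcl1 stood at 3.94% of its level in mature neutrophil-like cells, beside the 2.11% of S100a8. The part of free RNA in the A1 and Mcl1 values was not tested. The highest pooled level of Bcl2l1 outside the erythroid cells was 96.8 CPM, in megakaryocyte-like cells.

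In the neutrophil course Mcl1 stayed the leading gene and its lead widened. Its share of survival gene UMIs was 90.3% in granulocyte-monocyte progenitor-like cells, 94.4% in neutrophil precursor-like, 97.1% in immature and 97.6% in mature neutrophil-like cells. The Mcl1 level was 277 CPM (237 to 329 over 6 runs), 411 CPM (371 to 532), 738 CPM (521 to 946) and 1871 CPM (1145 to 2585). Progenitor and mature runs did not overlap, nor did progenitor and precursor runs or immature and mature runs, whereas precursor and immature runs overlapped. The log2 difference from progenitor to mature was 2.71, between 2.08 and 2.79 in the 5 runs with both. In UMIs per cell the course was 6.58, 9.48, 10.3 and 9.79, and mature cells had a median of 5126 UMIs against 23979 in progenitors.

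Pooled effector RNA was lower at each step. Bax stood at 139 CPM in progenitor-like cells (106 to 169), 77.1 in precursors (65.8 to 107), 26.3 in immature cells (23.0 to 49.0) and 13.7 in mature cells (0 to 106). Bak1 was 71.0, 60.4, 38.2 and 27.0 CPM. S100a8 and S100a9 stayed in these totals, at 19019 and 14696 CPM in progenitors and 149328 and 150031 CPM in mature cells. They lower the CPM of other genes, and their part in the Bax and Bak1 differences was not tested. Bax made up 66.3% of the effector UMIs in progenitors and 33.7% in mature cells, and Bak1 was the larger of the pair in pooled immature and mature cells. Single runs differed: Bax was the larger in a run of 45 immature cells (39 against 29 UMIs) and in a run of 77 mature cells (15 against 9). Survival UMIs per effector UMI were 1.46, 3.16, 11.8 and 47.1, with 13.04 to 193 over the runs of mature cells. Bcl2l11 was 5.48, 10.2, 17.6 and 41.3 CPM, the last between 25.7 and 122 over runs, and so was higher in mature cells together with Mcl1. Mcl1 had 50.6 UMIs for each Bcl2l11 UMI in progenitors and 45.3 in mature cells.

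**Figure D4:**
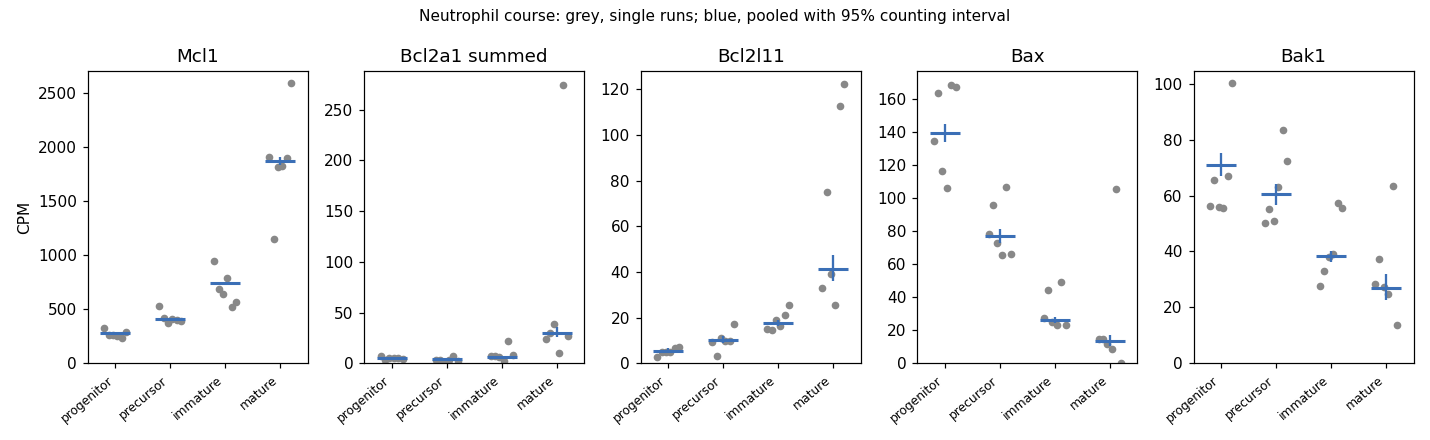
CPM of Mcl1, the summed A1 copies, Bcl2l11, Bax and Bak1 in granulocyte-monocyte progenitor-like cells and in precursor, immature and mature neutrophil-like cells. Grey points are runs with at least 20 cells, blue bars pooled levels with counting intervals; 1 run stands apart in mature cells at 275 CPM of A1 and 106 CPM of Bax.

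Of the 9 members, 5 reached 20 CPM in progenitor or mature cells. Of these, 3 were higher in mature cells (Mcl1, Bcl2l11 and Bcl2a1b) and 2 lower (Bax, -2.66, and Bak1, -1.13), beside 18.6% higher and 44.5% lower of 5543 genes, with a median of -0.78. Relative to that median Bak1 was at -0.35. The A1 copies, summed, were 4.88 CPM in progenitors and 30.2 CPM in mature cells (9.82, 28.6 and 275 in the lowest, median and highest run), with a log2 difference of 1.43. Bcl2a1b reached the minimum of 20 CPM only through the mature cells (21.8 against 2.59 CPM). The highest run had 77 mature cells and 39 A1 UMIs, and without it the difference was 1.12. Without that run Bcl2a1b was at 16.5 CPM in mature cells, under the minimum, and without another run, of 299 mature cells, at 18.9 CPM, so its call was lost in both cases. Bak1 was at -0.94 without the first of these runs and was then neither. In those cells the 14 macrophage markers summed to 429 CPM against 112 to 172 in the other 5 runs, with 1 of the 14 at 0 against 3 to 10. The 8 classical monocyte markers summed to 690 CPM against 711 to 1131. The part of other cells in these A1 and Bax values was not tested. The A1 difference fell under 2-fold in 2 alternatives, to 0.94 with family genes allowed in the clustering and to 0.81 with the Retnlg-led immature cluster counted as mature.

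In the B lineage the second survival gene changed while Mcl1 led both stages. Pro-B and pre-B cell-like cells, which rearrange their antigen receptors, had 415 CPM of Mcl1 and 82.0 CPM of Bcl2l1 (23.7, 86.4 and 109 over 5 runs), with Bcl2 at 7.48 and A1 at 1.70 CPM. Mature B cell-like cells had 541 CPM of Mcl1, 119 CPM of Bcl2 (75.04, 117 and 145 over 7 runs) and 135 CPM of A1 (70.1, 110 and 217), with Bcl2l1 at 3.57 CPM (12 UMIs). The runs of Bcl2 and of A1 did not overlap between the stages. Those of Bcl2l1 did, because 1 of 7 mature runs stood at 32.5 CPM against a median of 2.78.

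Shares of survival UMIs were 16.2% Bcl2l1 in pro-B and pre-B cell-like cells, and 14.9% Bcl2 and 16.9% A1 in mature B cell-like cells. The log2 difference from the early to the mature stage was 2.88 for Bcl2, 3.63 for summed A1 and -2.76 for Bcl2l1, each with the same sign in the 5 runs with both stages. Of 8 members with at least 20 CPM in either stage, 3 were higher (Bcl2, Bcl2a1b and Bcl2a1d) and 1 lower (Bcl2l1). Among all 6318 genes tested 5.08% were higher and 12.6% lower. Mcl1, Bcl2l11, Bax and Bak1 were neither. Plasma cell-like cells, which secrete antibody, had 82.5% Mcl1 and 10.5% Bcl2. Their Bax, at 44.5 CPM (41.2 to 52.1 over 8 runs), was the lowest outside the neutrophils and late erythroid cells. Antibody RNA, with Igkc and Jchain the leading genes of this cluster, stayed in their total and lowers the CPM of every other gene. The rank of Bax here is therefore one of CPM only.

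T cell-like cells had the most even mix of the 20 classes. Mcl1 held 38.4% of their survival UMIs, A1 35.1% and Bcl2 24.1%. Bcl2 had its highest level here, 225 CPM (98.0, 200 and 347 over 8 runs), and A1 reached 328 CPM (168, 306 and 633). The larger of the 2 T cell-like clusters (914 cells, led by Ccl5) had Mcl1 first in the pooled cells at 37.6%, but in only 2 of its 8 runs. NK cell markers came second in this cluster, with 4 of the 50 leading genes against 10 T cell markers. The smaller one (145 cells, led by Rora and Areg) had 48.3% Mcl1 and 24.9% A1. T cell-like cells also had 4.73 Mcl1 UMIs for each Bcl2l11 UMI, the lowest ratio of any class, against 45.3 in mature neutrophils.

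The macrophage-like class was the only one of the 20 in which A1 led, with 62.3% of survival UMIs (interval 61.4 to 63.2; 25.1, 60.9 and 82.3% over 8 runs). Its level was 1049 CPM (331, 1350 and 2016). The class joined 3 clusters, of which the first differed in its leading genes from the other two. In the 407 cells led by Vcam1, Hmox1 and Cd5l, the markers of island and red pulp macrophages, Mcl1 led with 62.1% and A1 held 33.4% (24.02 to 57.5% over 4 runs). In the 256 cells led by Fcgr4, C1qb and C1qc, A1 held 61.8% (51.9 to 85.6% over 3 runs). In the 1336 shallow cells led by C1qb and Fcgr4, with a median of 804 UMIs, A1 held 84.0% (50 to 86.8% over 7 runs). Markers of non-classical monocytes came second in both of these clusters. They were 3 of the 50 leading genes in the 256 cells, against 4 macrophage markers, and 2 against 5 in the 1336 cells. The 407 cells had 12 macrophage markers among theirs. A1 was 346 CPM in the first cluster, 1215 in the second and 1842 in the third, while Mcl1 was 643, 649 and 320 CPM. The share of the class depended on the processing, from 55.8% with all cells under 2000 UMIs left out to 68.4% without 1 run. An unnamed cluster of 49 cells, led by MHC class II genes, also had A1 first, with 88.6%.

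Monocyte-like clusters differed in the same gene. The 742 cells led by Lyz2 and Fn1 had 21.7 CPM of A1 (5.7 to 202 over 5 runs), which was 2.35% of their survival UMIs. The 664 cells led by Cd74 and other MHC class II genes had 309 CPM (177 to 663), or 19.3%. Mcl1 was 881 and 1252 CPM in these clusters and led both. Macrophage markers moved with A1. The 14 of the list summed to 170 CPM in the first cluster, with 1 at 0, and to 2416 CPM in the second, with 0 at 0, where Apoe and C1qb were among the 10 leading genes. Their part in the A1 difference was not tested. The second came mostly from 1 run (65.5% of its cells).

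The counted shares of the A1 copies differed between classes. Their transcripts were 98.2 to 99.1% identical, and of the 90-base windows in the last 400 bases 27.0% of Bcl2a1a, 34.1% of Bcl2a1b and 60.8% of Bcl2a1d also occurred in another copy, so that a level of 1 copy is uncertain. The part of this overlap in the shares by class was not tested. Bcl2a1a had 23.7% of A1 UMIs in macrophage-like cells (17.9 to 26.5% over 8 runs) and 15.6% in classical monocyte-like cells (10.1 to 22.2% over 7 runs). It had 2.09% in T cell-like cells (0 to 4.29% over 8 runs) and 0.881% in mature B cell-like cells (0 to 1.73% over 7 runs). No lymphoid run reached the lowest myeloid run in these 4 classes. Plasma cell-like cells, also lymphoid, lay between, with 8.18% of 110 A1 UMIs. Their interval of 3.81 to 14.96% reached above the lowest myeloid run, and their 1 run with at least 20 A1 UMIs had 5.77%. Bcl2a1a had 11.8% in immature neutrophil-like cells (9.57 to 17.9% over 4 runs) and 13.2% in mature ones (10.9 to 19.05% over 3 runs). Bcl2a1b was the largest of the 3 copies in each of these classes, from 43.0% in macrophage-like to 75.6% in mature B cell-like cells.

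**Figure D5:**
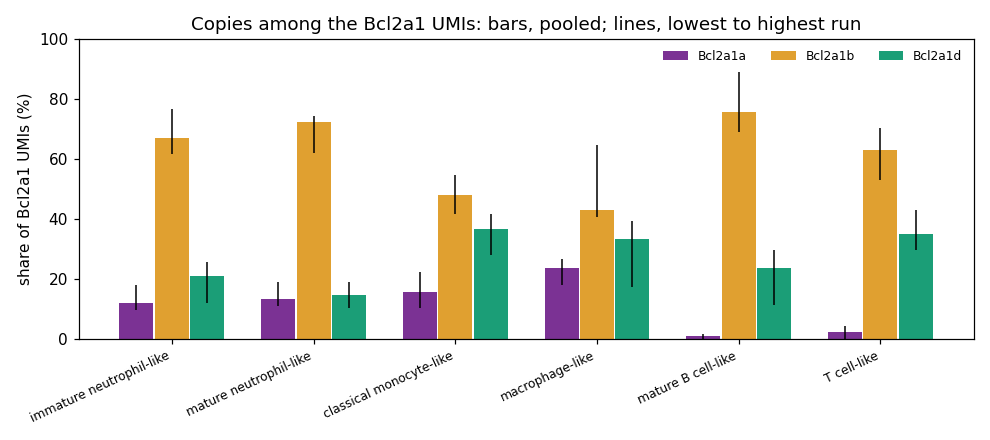
Share of each A1 copy among the A1 UMIs (y axis, percent) in the classes with at least 100 such UMIs and at least 2 runs of 20 or more. Bars are pooled shares and black lines the lowest to highest run; Bcl2a1a has 23.7% in macrophage-like cells and 0.881% in mature B cell-like cells.

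Among the other classes, megakaryocyte-like cells, the platelet precursors, had 64.6% Mcl1, 20.3% Bcl2l1 and 13.5% Bcl2, with Bcl2l1 at 96.8 CPM (25.6, 73.8 and 305 over 6 runs). Of these cells 64.9%, with 89.4% of the UMIs, came from 1 run. Without it the shares were 43.4% Mcl1, 36.4% Bcl2l1 and 9.09% Bcl2, and Mcl1 was at 150 CPM in place of 308. Stem and multipotent progenitor-like cells had 86.0% Mcl1 and 11.1% Bcl2, with Bcl2 at 73.2 CPM (65.4 to 101 over 5 runs). Basophil and mast cell markers came second there, with 3 of the 50 leading genes against 7, and 2 of the first 10 against 2. Plasmacytoid dendritic cell-like cells had 93.3% Mcl1, and basophil and mast cell-like cells 90.5%. Endothelial and stromal-like cells numbered 61 and gave 181 survival UMIs, 72.9% of them Mcl1, and 57.7% without the run that supplied most of them. The first 10 leading genes of this class included Col1a1, Cxcl12 and Bglap, but none of the endothelial markers Pecam1, Cdh5, Kdr and Emcn. Bcl2l11 was highest in mature B cell-like (75.8 CPM, 23.6 to 164) and T cell-like cells (75.6 CPM, 24.2 to 115), whose runs overlapped. With the largest run of each class left out, it was 48.3 CPM in mature B cell-like and 82.6 in T cell-like cells. Classical monocyte-like cells then had 64.6 CPM, so the rank of mature B cell-like cells depended on 1 run.

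The remaining family list held 16 genes found in the table. Of these 10 reached 20 CPM in some class, and Bcl2a1c, Bcl2l2, Bcl2l10, Bcl2l14, Bcl2l15 and Bik did not. Bnip3l (Nix), which directs the removal of mitochondria in reticulocytes, was 131 CPM under 2% globin, 501 at 20 to 60%, 2193 at 60 to 80% and 7122 at 80% or more, and was the 1 gene of the list that was higher in both late stages. Bbc3 (Puma), a BH3-only target of p53, was 88.3 CPM under 2% globin, 176 at 20 to 60% and 24.2 at 80% or more. Between under 2% and 60 to 80% globin, 6 of the 16 were tested, with 1 higher and 3 lower (Bid, Bad and Bcl2l12) and a median of -0.53, beside 16.6% higher, 41.7% lower and a median of -0.82 over all genes. Pmaip1 (Noxa), which binds Mcl1, was 142 CPM in basophil and mast cell-like, 137 in mature B cell-like and 129 in plasmacytoid dendritic cell-like cells, against 1.71 to 8.07 CPM in the erythroid stages. Bmf was 66.3 CPM in pro-B and pre-B cell-like and 6.84 in mature B cell-like cells (log2 -2.18), and Bok was 77.1 CPM in endothelial and stromal-like cells. In mature against progenitor neutrophil cells, 2 of 7 tested were lower (Bad and Bcl2l12) and none higher, with a median of 0.36, beside 18.6% higher, 44.5% lower and a median of -0.78 over all genes.

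The list of genes downstream of the mitochondrial step, such as caspases, their inhibitors and the channel genes Vdac1 to Vdac3, held 19 genes. Between under 2% and 60 to 80% globin, 2 of 15 tested were higher and 11 lower, with a median of -1.60, beside 16.6% higher, 41.7% lower and a median of -0.82 over all genes. Cycs, cytochrome c, was 440 and 159 CPM. Birc5, which also serves cell division, was 425 and 1315 CPM, and 162 CPM at 80% or more. The 2 higher genes, Birc2 and Birc5, were so only without globin in the totals, and on totals with globin Birc5 was at -0.07. In mature against progenitor neutrophil cells 1 of 15 was higher and 9 lower, a median of -1.50, beside 18.6% higher, 44.5% lower and a median of -0.78. Cycs was 29.6 against 522 CPM and Birc3, an inhibitor of apoptosis and NF-kB target, 144 against 8.50 CPM. In the B lineage 1 of 15 was lower (Birc5) and none higher, beside 12.6% lower and 5.08% higher of all genes.

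The list of survival receptors and of genes that act on these members upstream held 19 genes. Of 9 tested between under 2% and 60 to 80% globin, 2 were higher and 5 lower, with a median of -1.17, shares near the 16.6% higher and 41.7% lower of all genes. Epor, the erythropoietin receptor, was 63.9 CPM under 2% globin, 160 at 60 to 80% and 21.5 at 80% or more. The direction of Epor at 60 to 80% depended on the scale (1.20 without and -0.31 with globin in the totals). Foxo3, a transcription factor, was 45.1, 503 and 302 CPM, and with globin in the totals its difference at 80% or more was -0.42 in place of 2.50. Trp53 was 193, 59.8 and 28.5 CPM. In mature against progenitor neutrophil cells 4 of 13 were higher and 3 lower, a median of 0.71, beside 18.6% higher, 44.5% lower and a median of -0.78 for all genes. Csf3r, the G-CSF receptor, was 840 against 64.0 CPM and Csf2rb, the shared receptor chain for GM-CSF, 149 against 45.0 CPM. In the B lineage Il7r, the receptor that supports early B cells, was 238 CPM in pro-B and pre-B cell-like and 1.78 in mature B cell-like cells, and Il2rg 73.8 and 275 CPM.

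The genes whose levels were most like those of a member over the 20 classes and stages were found by Pearson's r of log2(CPM + 10) among 6892 genes. These r describe pooled classes that share libraries. For Bcl2l1 they were Xpo7 (r 0.93), Rnf10 (0.93) and Ube2o (0.93), each highest in a late erythroid stage. For Mcl1 they were Cmtm6 (0.91), Rassf3 (0.90) and Il17ra (0.89), highest in mature neutrophil-like cells. Bcl2 was most like Gimap5 (0.86), Inpp4b (0.85) and Rrad (0.85), highest in T cell-like cells, and summed A1 most like Lfng (0.90), Crybg1 (0.89) and Il10 (0.89), highest in macrophage-like cells.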

How the data were processed

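Unnormalized UMI counts of every library were deposited in a single matrix by the authors. Cell Ranger 5.0.0, Seurat 3.1.5 and mm10 are named in the submitters' processing notes. A filter of 200 genes and 20% mitochondrial UMIs left every cell in. Scrublet called 17 doublets (0.068%), too few for it to have worked, and doublets may remain. Clustering used scanpy 1.11.5 (Python 3.11.15; leidenalg 0.10.2) with 2000 variable genes without the family list, 30 components, 15 neighbours and resolution 1. A cluster took the name of the class that supplied the largest number of its 50 leading genes, with a minimum of 3, unless another class had more of its first 10, ranked by ratio to the median cluster; neutrophil stages were ranked against all other cells. Both ranking rules were revised after clusters, and for the stages member levels, had been seen: a first ranking against all other cells had left 2 early erythroid clusters unnamed, and 1 against the granulocytic clusters had put the Retnlg-led cluster with the mature cells. UMIs were summed per class and run (numpy 2.4.6, scipy 1.17.1, pandas 2.3.3). For log2 differences 10 CPM was added, and the gene had to reach 20 CPM in one of the classes. The planned tests between groups were not made. Members and lists were chosen with earlier results of these data known. All 9 members were named, with other family genes of at least 20 CPM and at most 12 pathway genes of at least 100 CPM in some class. The calculation was tested on simulated data. Positions are from GENCODE release M21. All 9 members matched the RefSeq promoter table; no protein sequences are printed.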

Additional observations from a re-analysis of the deposited data

How the results depend on the processing

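Of the 10 results recomputed under every alternative that gave a value, the log2 differences kept their sign. The others were shares and a count of classes, which cannot change sign. Outside these 10 results, the erythroid differences of Mcl1, Epor and Birc5 at 60 to 80% globin changed sign with globin in the totals. That of Foxo3 at 80% or more did so too, as given above. Mcl1 led 15 of 18 classes at resolution 0.5, 16 of 19 with the stricter cell filter (500 genes, 10% mitochondrial UMIs) or with family genes allowed in clustering, and 17 of 20 otherwise. The Bcl2l1 share at 60 to 80% globin was 85.9% without the 6% highest doublet scores, 76.4% with globin boundaries at 3, 25, 55 and 75%, 81.4% with runs weighted equally, and 83.0 to 86.1% with each run left out; its log2 difference was 4.29 with globin in the totals, 7.03 with 1 CPM added and 5.23 with the moved boundaries (5.78 to 6.16 without single runs). The Mcl1 share in mature neutrophil-like cells was 97.2% at resolution 2, 95.7% with equal runs, 98.0% without cells under 2000 UMIs, and 96.9 to 98.0% without single runs. The A1 log2 difference in that course was 1.08 with the stricter filter, 0.94 with family genes in clustering, 2.41 with 1 CPM added, 2.38 with equal runs, 1.14 without cells under 2000 UMIs, 0.81 with the Retnlg-led cluster counted as mature, and 1.12 to 1.89 without single runs. The Bcl2 log2 difference in the B lineage was 3.82 with 1 CPM added and 2.81 to 2.96 without single runs. The A1 share in macrophage-like cells left its counting interval in 10 of 20 alternatives (55.8 to 68.4%), the Bcl2 share in T cell-like cells in 4 (21.5 to 25.8%) and the Mcl1 difference of the neutrophil course in 4 of 19 (2.26 to 3.04). The Bcl2l1 share at 60 to 80% globin did so in 7 and its erythroid log2 difference in 3. For the Mcl1 share in mature neutrophil-like cells the count was 6, and for the A1 difference of that course 8. The Bcl2 and Bcl2l1 differences of the B lineage left theirs in 1 each. With 1 CPM added, the Bcl2l1 difference between pro-B and pre-B cell-like and mature B cell-like cells was 4.18. The causes of these shifts were not tested, beyond the added CPM and the changed totals, which act by construction. Resolution 0.5 gave no granulocyte-monocyte progenitor-like class, so the neutrophil differences have no value there. The alternatives without cells under 2000 UMIs, with the Retnlg-led cluster moved, with single runs left out for every member and with the largest run of each class left out were chosen after seeing the data. Classes were compared within runs, as given above. No paired analysis was possible because no run could be tied to a group, which leaves pairs between groups undefined. A level of 3 UMIs was taken as the floor. It was 0.0777 CPM in immature neutrophil-like cells, 2.36 CPM in basophil and mast cell-like and 8.27 CPM in endothelial and stromal-like cells. Lower levels rest on fewer UMIs and are not reliable at this depth.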
